A study of Mus musculus with 6 samples.

Results

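The platelet-derived growth factor (PDGF) ligands and their receptors were measured as part of a panel of tumour-related genes in mouse mammary tumours. Their genes were taken as every row of the deposited gene table whose name starts with Pdgf, which gave 6 of 750 genes: the 4 ligand genes Pdgfa, Pdgfb, Pdgfc and Pdgfd, and the 2 receptor genes Pdgfra and Pdgfrb. RNA came from mammary tumours of female mice, which arose from cells of the mouse mammary carcinoma line 4T1 placed in the left mammary fat pad. Both groups carried such tumours: 3 were labelled saline and 3 TTFM (Thai traditional formulary medicine, given as extracts), with treatment from 2 weeks after implantation. The labels of all 6 samples also carry the name CLDX for the mouse model, which they do not explain. The sources used here give no strain, age, dose or composition of the extracts, and do not state whether each tumour came from a separate mouse. Part of the spread that the p-values measure may therefore be technical.

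PDGF ligands are secreted as dimers joined by disulfide bonds. PDGF-A and PDGF-B are cut to their active form inside the producing cell, whereas PDGF-C and PDGF-D are secreted with an inhibitory CUB domain that extracellular proteases remove. PDGF receptor alpha binds the A, B and C chains, receptor beta binds the B and D chains, and both are tyrosine kinases that feed the RAS-ERK and PI3K-AKT pathways. In tumours the receptors are known from fibroblasts and pericytes, the mural cells of small vessels, and PDGF-B from endothelial cells and platelets.

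Promoter windows of 300 bases are given for 3 members, from 250 bases before to 50 bases after an annotated start, read 5′ to 3′ along the gene from RefSeq sequence of GRCm38.p6. Windows were matched by symbol for 4 of the 6 genes, Pdgfa (2 windows), Pdgfc, Pdgfd and Pdgfra, and not for Pdgfb and Pdgfrb. Pdgfa and Pdgfc are shown because the tumour lowest in the one was the highest in the other, and Pdgfra because it was the receptor gene with the highest value in a TTFM tumour. The Pdgfa window lies on the minus strand at chr5:138994895-138995194, the Pdgfc window on the plus strand at chr3:81036166-81036465 and the Pdgfra window on the plus strand at chr5:75152001-75152300. Capitals mark matches on either strand to GGGCGG (the GC box), CCAAT (the CCAAT box), TATAAA (the TATA box) or TGANTCA (the AP-1 site), none of which overlapped another here.
Pdgfa: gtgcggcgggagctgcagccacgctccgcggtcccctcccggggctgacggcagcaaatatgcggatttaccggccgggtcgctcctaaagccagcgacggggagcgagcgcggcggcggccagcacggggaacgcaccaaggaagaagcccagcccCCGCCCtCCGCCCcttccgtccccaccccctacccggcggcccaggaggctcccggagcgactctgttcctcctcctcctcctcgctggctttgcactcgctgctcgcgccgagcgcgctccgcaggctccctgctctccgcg
Pdgfc: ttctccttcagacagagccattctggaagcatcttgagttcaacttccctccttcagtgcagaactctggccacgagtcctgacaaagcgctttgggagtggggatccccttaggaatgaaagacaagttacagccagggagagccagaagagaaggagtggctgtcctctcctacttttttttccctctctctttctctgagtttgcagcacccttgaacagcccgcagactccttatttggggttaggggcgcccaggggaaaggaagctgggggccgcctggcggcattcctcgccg
Pdgfra: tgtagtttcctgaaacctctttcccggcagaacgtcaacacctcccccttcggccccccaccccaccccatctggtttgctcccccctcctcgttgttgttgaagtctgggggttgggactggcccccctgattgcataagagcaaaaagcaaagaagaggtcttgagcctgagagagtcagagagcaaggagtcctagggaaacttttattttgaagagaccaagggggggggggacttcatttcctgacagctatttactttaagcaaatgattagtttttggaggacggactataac
The Pdgfa window held 2 matches to GGGCGG, both on the opposite strand, starting 93 and 86 bases before the start. The other Pdgfa window held 1. GGGCGG was found in 35.7% of all 32851 windows of this length, CCAAT in 37.4%, TATAAA in 13.6% and TGANTCA in 7.81%. The Pdgfc and Pdgfra windows held no match to these letters, and the Pdgfd window, not shown, held 1 TATAAA, 160 bases before the start. Bases G and C made up 73.3% of the Pdgfa window shown, 55% of that of Pdgfc and 51% of that of Pdgfra.

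Total counts ran from 333515 to 449460 per tumour. All values below are normalized counts, which are counts scaled for the total and for a trimmed mean of M values (TMM) factor of 0.885 to 1.12. They compare 1 gene across tumours, and the members are not ranked by level, since a count also depends on how each gene was measured. The bottom of the counting range is marked by the Y-linked gene Uty, at 4 to 12 counts in tumours of female mice. The epithelial genes Cdh1 (E-cadherin, mean count 1437.5) and Erbb2 (577.5) were detected above that range.

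None of the PDGF ligand or receptor genes passed the test between TTFM and saline tumours, and tumours of 1 group differed from each other by up to 3.19-fold. In edgeR's quasi-likelihood test 0 of the 6 genes passed an adjusted p of 0.05, where 0 of all 627 genes tested passed (0%). At an unadjusted p under 0.05 there were 0 of 6, against 38 of 627 (6.06%), and DESeq2 and limma with trend also called 0 of the 6, with 1 and 0 calls over all genes. Without saline replicate 2, edgeR's test called 14 of all genes and 0 of the 6. The groups did not overlap in 0 of 6 genes, against 52 of 627 (8.29%). For 5 of the 6 genes the group means differed by less than 1 pooled SD within groups on the log2 scale, and the same held for 69.7% of all genes tested. The exception was Pdgfd, with a difference of -0.61 against a pooled SD of 0.48. In bulk tumour RNA, fewer cells of a type and less RNA per cell cannot be told apart, which applies to every value here.

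**Figure D1:**
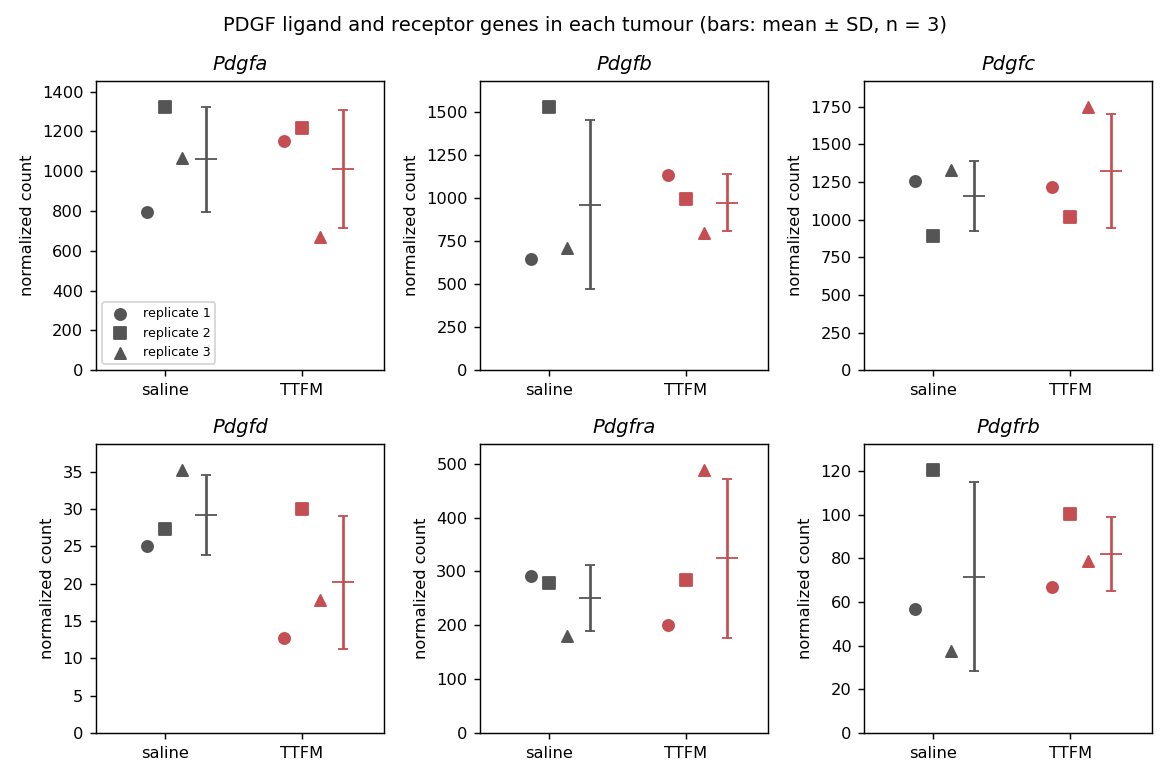
Normalized count (linear axis from 0) of each PDGF gene in the 3 saline and 3 TTFM tumours. Symbols mark the replicate number and the bars beside them the mean ± SD. In each gene the groups overlap, and saline replicate 2 is highest for Pdgfb (1528) and Pdgfrb (121), and TTFM replicate 3 for Pdgfc (1746) and Pdgfra (488).

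Among the ligands, Pdgfa encodes the A chain, which acts through receptor alpha. It had normalized counts of 794, 1321 and 1065 in saline replicates 1 to 3 and of 1151, 1215 and 669 in TTFM replicates 1 to 3. TTFM replicate 3 was the lowest of all, saline replicate 2 was the highest (saline replicate 3 when scaled to the total count), and the other TTFM tumours lay inside the saline range. Its mean was 1060.2 ± 264 for saline and 1012 ± 298 for TTFM (SD, n = 3). The log2 fold change was -0.067 with a standard error (SE) of 0.30 and a 95% interval from -0.76 to 0.63 (edgeR adjusted p = 0.972). Its sign turned when saline replicate 2 (0.12) or TTFM replicate 3 (0.18) was left out.

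Pdgfb encodes the B chain, which binds both receptors and draws pericytes to new vessels. It had 648, 1528 and 709 normalized counts in saline replicates 1 to 3 and 1132, 994 and 798 in TTFM replicates 1 to 3. Saline replicate 2 was the highest tumour and the other saline tumours were the lowest, so that the saline values enclosed all TTFM values. The means were 962 ± 492 and 975 ± 168 (SD, n = 3), with a log2 fold change of 0.020 (SE 0.36, 95% interval -0.81 to 0.85, edgeR adjusted p = 0.987). Without saline replicate 2 it was 0.52 (95% interval -0.0062 to 1.05, edgeR adjusted p = 0.270). Without saline replicate 1, saline replicate 3 or TTFM replicate 1 it was -0.17, -0.13 and -0.10.

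Pdgfc encodes a latent ligand of receptor alpha. It had 1254, 893 and 1329 normalized counts in saline replicates 1 to 3 and 1216, 1015 and 1746 in TTFM replicates 1 to 3. TTFM replicate 3, the tumour lowest in Pdgfa, was the highest, and saline replicate 2 was the lowest. The means were 1159 ± 233 and 1325 ± 378 (SD, n = 3), and the log2 fold change was 0.19 (SE 0.28, 95% interval -0.45 to 0.83, edgeR adjusted p = 0.962). Without TTFM replicate 3 it was -0.035, and without saline replicate 2 it was 0.037.

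Pdgfd encodes a latent ligand of receptor beta and had few counts. Its deposited counts were 26, 24 and 41 in saline replicates 1 to 3 and 13, 30 and 16 in TTFM replicates 1 to 3, just above the bottom of the counting range. The exact Poisson 95% interval, which covers counting error only, ran from 6.92 to 22.2 for the lowest count of Pdgfd and from 29.4 to 55.6 for the highest. Its normalized mean was 29.2 ± 5.34 for saline and 20.2 ± 8.90 for TTFM (SD, n = 3). TTFM replicates 1 and 3 lay below all saline tumours, and TTFM replicate 2, at 30.1, lay among them. The log2 fold change was -0.53 (SE 0.39, 95% interval -1.43 to 0.37, edgeR adjusted p = 0.938), and -0.32 with values under 20 raised to 20. It was -0.94 without TTFM replicate 2, -0.28 without TTFM replicate 1 and -0.35 without saline replicate 3.

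Of the receptors, Pdgfra encodes receptor alpha, a marker of fibroblasts. It had 292, 279 and 179 normalized counts in saline replicates 1 to 3 and 201, 284 and 488 in TTFM replicates 1 to 3. TTFM replicate 3 stood 1.67-fold above the next highest tumour, saline replicate 1, while the other TTFM tumours lay within the saline range. The means were 249.96 ± 61.4 and 325 ± 148 (SD, n = 3). The log2 fold change of 0.38 (SE 0.36, 95% interval -0.45 to 1.21, edgeR adjusted p = 0.938) rested on that tumour and was -0.027 without it. It was 0.21 without saline replicate 3 and 0.63 without TTFM replicate 1.

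Pdgfrb encodes receptor beta, a marker of pericytes. It had 56.8, 121 and 37.8 normalized counts in saline replicates 1 to 3 and 66.8, 100.2 and 78.8 in TTFM replicates 1 to 3. As for Pdgfb, saline replicate 2 was the highest tumour and the other saline tumours were the lowest. The saline values spanned 3.19-fold and the TTFM values 1.50-fold, and the spread of the groups was not tested. The means were 71.7 ± 43.3 and 81.9 ± 16.9 (SD, n = 3), with a log2 fold change of 0.20 (SE 0.44, 95% interval -0.83 to 1.23, edgeR adjusted p = 0.962). Without saline replicate 2 it was 0.79 (95% interval 0.00075 to 1.59, edgeR adjusted p = 0.265), and without saline replicate 3 it was -0.089. 

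**Figure D2:**
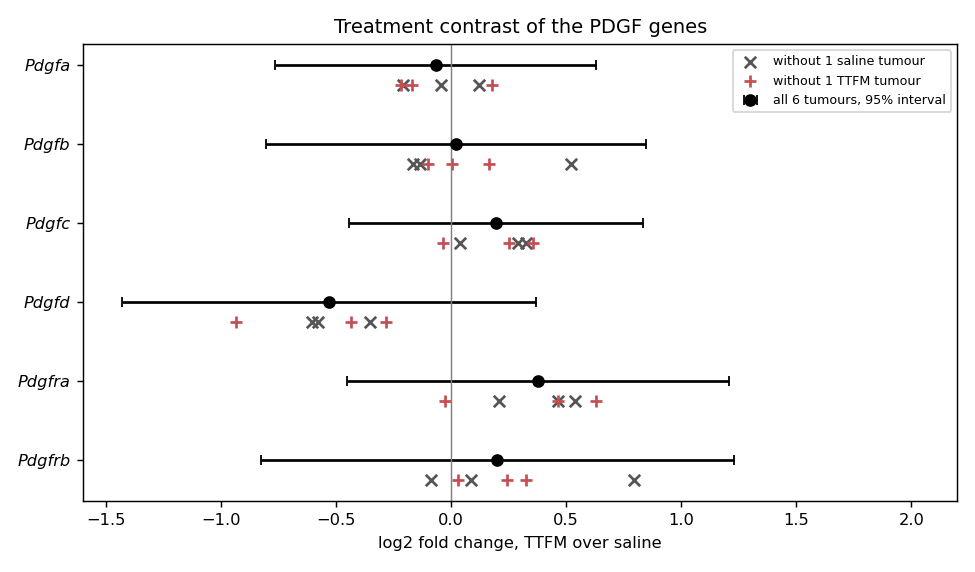
Log2 fold change (TTFM over saline) of each PDGF gene, with its 95% interval, and below it the values with 1 tumour left out. Every interval includes 0. Leaving out saline replicate 2 moves Pdgfrb to 0.79 and Pdgfb to 0.52, and leaving out TTFM replicate 3 moves Pdgfra to -0.027.

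The members did not vary as 1 group from tumour to tumour. Likeness was measured as the root mean square difference between log2 values, each centred on its gene's mean over the 6 tumours, where a smaller value means a more similar pattern. Of the 15 pairs of members, Pdgfa and Pdgfb were closest (0.30), followed by the ligand-receptor pair Pdgfb and Pdgfrb (0.35) and the pair Pdgfc and Pdgfra (0.44). The farthest were Pdgfd and Pdgfrb (0.78) and Pdgfc and Pdgfrb (0.75), although the former is a ligand and its receptor. Pdgfd had only 13 to 41 counts, so counting error adds to each of its differences. The ligand-receptor pair Pdgfa and Pdgfra, with more counts, stood at 0.74. All these differences describe 6 tumours and carry no test.

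Log2 ratios of raw counts within a tumour, which do not depend on the scaling, showed the same divergence. They are given as differences from the mean of the 6 tumours. The ratio of Pdgfa to Pdgfra stood at -0.44, 0.36 and 0.68 in saline replicates 1 to 3 and at 0.63, 0.21 and -1.43 in TTFM replicates 1 to 3, a 4.33-fold range with TTFM replicate 3 apart from the others. The ratio of Pdgfra to Pdgfrb was lowest in saline replicate 2 (-0.72) and highest in TTFM replicate 3 (0.71), with saline and TTFM means of 0.015 and -0.015. The ratio of Pdgfb to Pdgfrb had the narrowest of these ranges, 1.89-fold, from -0.38 in TTFM replicate 2 to 0.54 in saline replicate 3. The ratios of Pdgfc to each receptor gene were chosen after the values were seen. That of Pdgfc to Pdgfra, the receptor it acts through, had a 2.31-fold range, from -0.48 in saline replicate 2 to 0.73 in saline replicate 3. That of Pdgfc to Pdgfrb had a 4.75-fold range, from -1.19 in saline replicate 2 to 1.06 in saline replicate 3. The groups overlapped in all of these ratios.

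The panel held 9 of 19 listed genes of fibroblasts and matrix, and 8 of them were compared with the members, since Pdgfra is itself on that list. Their mean log2 difference from the 6-tumour mean was -0.90, 1.35 and -1.93 in saline replicates 1 to 3 and 0.25, 0.85 and 0.37 in TTFM replicates 1 to 3. The tumour highest in these genes, saline replicate 2, was also highest in Pdgfb and Pdgfrb, and the tumours lowest in them, saline replicates 3 and 1, were the lowest in Pdgfrb and Pdgfb. Col1a1, which encodes a chain of type I collagen, had 18645 normalized counts in saline replicate 2 and 1516 in saline replicate 3, and Col1a2, the other chain, 8299 and 490.3. Tnc, which encodes the matrix protein tenascin C, had 24093 and 1675. Fn1 (fibronectin) went the other way, with 21184 and 29185. The summed level of the 8 genes ran from 33591 to 84540.5 in saline and from 47919.5 to 64993 in TTFM tumours. Fn1 made up 29185 of the lowest sum, in saline replicate 3, so the sum understates the range of the collagen genes. The part of the 8 genes in the PDGF values was not tested.

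Pdgfra had this pattern only in part. Its lowest tumour, saline replicate 3 (TTFM replicate 1 when scaled to the total count), was also the lowest in the matrix genes (-1.93), but its highest, TTFM replicate 3, stood at 0.37 in their mean, below saline replicate 2 and TTFM replicate 2. The other pericyte genes on the panel, 2 of 11 listed beside Pdgfrb, were Notch3, a receptor of mural cells, and Angpt1, which encodes the vessel-stabilising ligand angiopoietin 1. Notch3 had 70.3, 26.2 and 69.6 normalized counts in saline replicates 1 to 3 and 29.5, 22.0 and 92.1 in TTFM replicates 1 to 3. It was low in saline replicate 2 and TTFM replicate 2, the tumours highest in Pdgfrb. It was highest in TTFM replicate 3, which came next in Pdgfrb (78.8). Angpt1, with a mean count of 19.3, was lowest in saline replicate 2 (7.96). The pair summed to between 34.1 and 112 in saline and between 35.1 and 114 in TTFM tumours. Its part in the value of Pdgfrb was not tested.

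**Figure D3:**
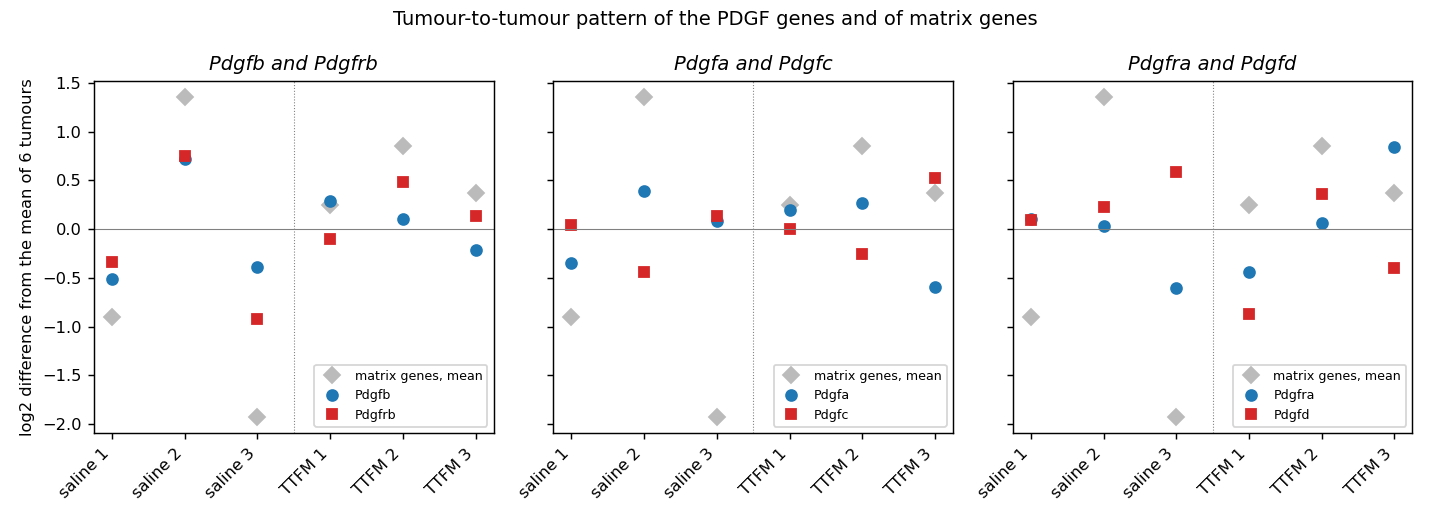
Log2 difference of each PDGF gene from its mean over the 6 tumours, by tumour, in 3 panels of 2 genes, with the mean of 8 matrix genes in grey (the same in each panel). Pdgfb (0.72) and Pdgfrb (0.75) are highest in saline replicate 2, where the matrix genes stand at 1.35, whereas Pdgfc stands at -0.44 there. Pdgfra is highest in TTFM replicate 3 (0.84).

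Of the endothelial genes, 3 of 11 listed were on the panel. Kdr and Flt1, which encode receptors of vascular endothelial growth factor (VEGF), and Nos3, the endothelial nitric oxide synthase, had log2 fold changes of 0.14, -0.19 and -0.35. None passed edgeR's test, and their range over the 6 tumours was from 92.7 to 160 normalized counts for Kdr, 155 to 266 for Flt1 and 43.2 to 85.7 for Nos3. Kdr, like Pdgfrb, was lowest in saline replicate 3, whereas Flt1 and Nos3 were lowest in TTFM replicate 1. None of these endothelial genes was highest in saline replicate 2, the tumour highest in Pdgfrb. Kdr came close, at 156 there against 160 in TTFM replicate 3.

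The macrophage list had 2 of 8 genes, Cd14 (log2 fold change -1.73) and Csf1r (0.41). The neutrophil list had 4 of 8 (Il1b, Il1r2, Csf3r and Mpo), with a median of -1.63. Of lymphocytes, 3 of 12 listed genes were on the panel and 2 were tested, Il2rb (1.08) and Gzmb (0.39), both highest in TTFM replicate 3, with 293 and 66.6 normalized counts, the tumour highest in Pdgfra and Pdgfc. The other tumours had 54.1 to 169.9 (Il2rb) and 9.82 to 32.6 (Gzmb). The epithelial list had 4 of 10 (median 0.062), with Cdh1 at 0.17, Erbb2 at -0.043, Erbb3 at -0.10 and Itgb4 at 0.46. Adipocytes had 1 of 6 (Lep, mean count 8) and skeletal muscle 0 of 6. The part of these cells in the values of the PDGF genes was not tested.

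Some genes of the panel followed single members closely, among 442 other genes whose mean count reached 50. They are named for members whose tumours spanned at least 2-fold, which leaves out Pdgfa and Pdgfc. The genes most like Pdgfb were Jag1, which encodes a Notch ligand (root mean square difference 0.11), then Hells (0.17), Brip1 (0.18) and Pole2 (0.20), against a median of 0.53 over the 442. Jag1 had 246, 643 and 264 normalized counts in saline replicates 1 to 3 and 484, 466 and 341 in TTFM replicates 1 to 3, the same order of tumours as Pdgfb. Those most like Pdgfrb were the receptor tyrosine kinase genes Fgfr1 (0.17) and Egfr (0.19), then H2afx and Pbx3 (both 0.20, against a median of 0.64). Fgfr1 had 269, 586 and 225 normalized counts in saline replicates 1 to 3 and 379, 423 and 428 in TTFM replicates 1 to 3.

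Those most like Pdgfra were Tslp, which encodes an epithelial cytokine, and Il3ra, the interleukin-3 receptor alpha chain (0.12 and 0.13, against a median of 0.58). They were followed by Pik3r1 (0.15), a regulatory subunit of the PI3 kinase that docks on PDGF receptors, and Igfbp3 (0.18). Tslp had 2137, 1671 and 1412 normalized counts in saline replicates 1 to 3 and 1430, 2133 and 3337 in TTFM replicates 1 to 3, and like Pdgfra was highest in TTFM replicate 3. For Pdgfd, where counting error adds to each difference, the nearest genes, Gadd45g (0.30), Clcf1 (0.32), Mapk8 (0.34) and Cdk6 (0.34), were farther off. These likenesses were picked as the smallest of 442 over 6 tumours and are descriptions only.

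The genes on which the receptors act were also on the panel in part. Of 28 adaptors and direct effectors of the receptors, 17 were tested, 0 passed edgeR's test in either direction, 10 had positive and 7 negative log2 fold changes, and the median was 0.079, against -0.0014 over all genes tested. Those of smallest p were Pik3r2 (0.51, SE 0.23) and Pik3ca (0.33), which encode subunits of PI3 kinase, Stat3 (-0.38) and Pik3r3 (-0.41). Of 15 RAS-ERK and AKT kinase genes, 13 were tested, 0 passed and the median was 0.035. Nras stood at 0.44 (SE 0.18), with no overlap between the groups, while Braf stood at -0.59 and Mapk3, which encodes ERK1, at -0.38.

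Of 16 immediate-early genes, which growth factors and many other stimuli induce within minutes, 9 were tested and 0 passed. The median was -0.40, with 6 negative and 3 positive. Fos stood at -1.39 (SE 0.47) and the phosphatase gene Dusp5 at -1.11 (SE 0.30), while Fosl1 and Dusp4 stood at -0.59 and -0.37. The first 2 had an unadjusted p under 0.05 in edgeR's test (2 of 9, against 6.06% of all genes tested). The groups did not overlap in Dusp5 (1 of 9, against 8.29% of all genes), with 306, 159 and 294 normalized counts in saline replicates 1 to 3 and 139, 119 and 93.2 in TTFM replicates 1 to 3. Dusp5 and Fos were highest in saline replicates 1 and 3, Pdgfra in TTFM replicate 3 and Pdgfrb in saline replicate 2. The activity of the receptors was not measured, and their part in the values of Dusp5 and Fos was not tested. Cd14 (-1.73) and the neutrophil genes (median -1.63) were also lower in TTFM tumours without passing the test. Cd14 and the neutrophil genes Csf3r, Il1b and Il1r2 were likewise highest in saline replicates 1 and 3. For Il1r2, saline replicate 1 (90.5) stood barely above saline replicate 2 (88.7). The other macrophage gene, Csf1r (0.41), was highest in TTFM replicate 3 (532), and the neutrophil gene Mpo in saline replicate 2 (52.3). The part of macrophages and neutrophils in the values of Fos and Dusp5 was not tested.

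**Figure D4:**
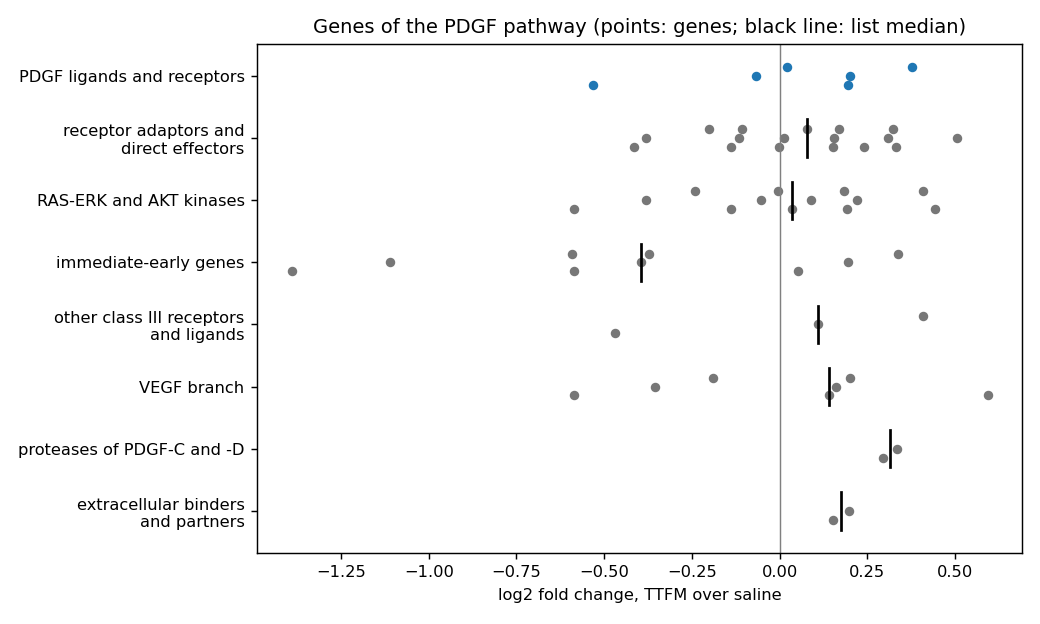
Log2 fold change (TTFM over saline) of the 6 PDGF genes (blue) and of the tested genes of 7 pathway lists (grey), with each list's median as a black line. The PDGF genes lie between -0.53 and 0.38, and the immediate-early list has the lowest median, -0.40.

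Genes of related ligands and receptors were compared as a background to the PDGF genes. In the VEGF branch of the same superfamily 7 of 11 listed genes were tested, 0 passed, and the median was 0.14. Pgf, which encodes placental growth factor, had 274, 334 and 353 normalized counts in saline replicates 1 to 3 and 221, 197 and 222 in TTFM replicates 1 to 3 (log2 fold change -0.59, SE 0.19, edgeR adjusted p = 0.587), with no overlap between the groups. Vegfb stood at 0.59 (SE 0.31), Vegfc at -0.36 and Flt1 at -0.19. Among the other class III receptors, the family to which the PDGF receptors belong, and their ligands, 3 of 7 listed genes were tested and 0 passed. These were Csf1r at 0.41, Kit at 0.11 and Kitl at -0.47, the last with an SE of 0.86. Kitl, the ligand of Kit, had 951, 108 and 768 normalized counts in saline replicates 1 to 3 and 200.3, 177 and 945 in TTFM replicates 1 to 3. It was low in saline replicate 2 and TTFM replicate 2, the tumours highest in Pdgfrb. It was high in TTFM replicate 3, which came next in Pdgfrb (78.8).

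The proteases that remove the CUB domain were represented by Plat, whose product tPA cleaves PDGF-C, and Plau, whose product uPA cleaves PDGF-D, 2 of 5 listed. Plat stood at 0.33 (SE 0.33), with values from 166 (saline replicate 3) to 377 (TTFM replicate 3), and Plau at 0.29 (SE 0.57). Plau had 644, 1538 and 346 normalized counts in saline replicates 1 to 3 and 1291, 1299 and 506 in TTFM replicates 1 to 3. Plau was highest and lowest in the same tumours as Pdgfrb. Of 9 listed extracellular binders and receptor partners, 2 were tested, the integrin gene Itgb3 at 0.20 and Tgfb1, which encodes transforming growth factor beta 1, at 0.15. None of these 4 genes passed edgeR's test.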

How the data were processed

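The authors deposited 1 table of whole-number counts for 750 genes in 6 tumours, read here as counts that were not normalized. The sources used here do not give the platform, counting steps or genome build. No value was below 1, so zeros may have been raised before deposit, and how background was treated is unknown. Per the labels' protocols, total RNA was isolated with a column kit from tumour tissue. Genes averaging 10 counts or more were kept (627, including all 6 members), scaled by TMM and tested, TTFM against saline, by quasi-likelihood in edgeR 4.0.16 (glmQLFTest) in R 4.3.3, adjusted by Benjamini-Hochberg over all genes at a threshold of 0.05. The SE is the log2 fold change over the square root of F, and intervals use the t distribution. The script was tested on simulated data that varied less between tumours than these data do. That run therefore does not show how small a change could be found here. Alternatives used DESeq2 1.42.0, limma 3.58.1 on log2 values with a prior count of 1, other scalings, filters of none or a mean of at least 50, a floor of 20, a replicate block and each tumour left out. Tumours differed by more than sampling noise in every pair (lowest chi-square over its degrees of freedom 7.52). The members, lists and rules were chosen with earlier results of these data known. Named genes were all members, up to 4 genes of smallest p per pathway list or of highest mean per marker list, and the 4 genes most like each member. Uty is named outside this rule, and some results within it are not reported.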

Additional observations from a re-analysis of the deposited data

How the results depend on the processing

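No PDGF gene passed under any of the 15 alternatives, and Pdgfd with a mean of at least 50 could not be given, since it fell below that filter. Scaling to housekeeping genes was not run, because none of those listed for it was in the table above the minimum set. Over all genes the count past the threshold was 0, 1 with DESeq2's test, and 0 to 14 with 1 tumour left out, 14 without saline replicate 2. With 1 tumour left out, the log2 fold change ran from -0.22 to 0.18 for Pdgfa, -0.17 to 0.52 for Pdgfb, -0.035 to 0.35 for Pdgfc, -0.94 to -0.28 for Pdgfd, -0.027 to 0.63 for Pdgfra and -0.089 to 0.79 for Pdgfrb. Apart from these, the only change of sign was Pdgfb at -0.0051 with values under 20 raised to 20, and the cause was not tested. Same-numbered tumours of the groups correlated, over genes, at -0.21, 0.42 and 0.26 in their deviations from group means, so the numbers were not taken as pairs, and saline replicate 1 correlated best with TTFM replicate 3 (0.39). With a replicate block the count over all genes was 0 and Pdgfrb stood at 0.32, Pdgfra at 0.31 and Pdgfb at 0.12. Scaled to the total, Pdgfa was highest in saline replicate 3 (1190.3) and Pdgfra lowest in TTFM replicate 1 (195), while the highest tumour of the other 5 members was the same as with TMM. Depth limits Pdgfd most, at 13 to 41 counts.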
